A study of Rattus norvegicus with 12 samples.

Results

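Dnase1 and Endog encode endonucleases, enzymes that cut DNA, and their transcript levels were followed here across age and diabetes in rat renal cortex. They are 2 of 14214 genes named alone by a probe set of the array, and each is represented by 1 probe set. Both genes were chosen by measured values of these same arrays, Dnase1 because its signal was higher in diabetic rats and Endog because its signal was lower at 20 than at 10 weeks in nondiabetic rats. Those contrasts are therefore described without a test.

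Cortex of male rat littermates was profiled on 12 single-colour arrays, 3 in each of 4 groups. Diabetic rats received a single intravenous dose of streptozocin (65 mg/kg), a toxin of pancreatic beta cells, followed after 3 days by an insulin palmitate pellet. Their glucose is given as 350 to 450 mg/dl in the sample labels, while the series text has 350 at both ends of the range. Groups studied at 10 weeks of age had been injected at 4 weeks, and groups studied at 20 weeks at 14 weeks. Nondiabetic rats of both ages received vehicle in place of streptozocin and a pellet of palmitate vehicle. All groups had free access to food and water, and tissue was taken 6 weeks into the protocol. The treatment label of 10-week diabetic replicate 1 names an insulin palmitate vehicle pellet, which may be a slip or a different treatment. Apart from this label, streptozocin, insulin pellet and diabetes went together in every diabetic group and cannot be told apart.

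DNase I, the product of Dnase1, is a secreted endonuclease that needs calcium and magnesium, digests DNA released outside cells, and is blocked by monomeric actin. Kidney is among the tissues rich in its activity, and the enzyme is also found in urine. Endonuclease G, the product of Endog, is encoded in the nucleus and kept in the space between the mitochondrial membranes. During cell death it can leave the mitochondria, enter the nucleus and cut DNA without the help of caspases.

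The deposited signals were scaled by the authors to a common level, with a mean of 500.19 to 500.21 per array after trimming 2% at each end. Correlations between arrays lay between 0.941 and 0.976. Markers of the proximal tubule, the main cell type of cortex, such as Lrp2 and Slc34a1, were above the limit for dim probe sets (a signal of 70.9). Of 10 markers of pancreatic acinar and salivary gland cells, which also make DNase I, 7 were below 70.9 on every array, among them Prss1, Cpa1 and Amy2a3. Only 1 of the 10, Cela1, passed the limit for dim probe sets by its mean. The ratio of 3' to 5' signal for Gapdh, a control that reads higher in degraded RNA, was 1.41 to 1.495 on the 10-week arrays and 1.42 to 2.09 on the 20-week arrays, with the highest value in 20-week nondiabetic replicate 1. For beta-actin, a second such control, the ratio was higher, at 6.296 to 8.568 on the 10-week arrays and 6.871 to 11.37 on the 20-week arrays. This 20-week nondiabetic replicate 1, and 10-week diabetic replicate 1 with its unclear pellet label, are called the doubted arrays here. The highest beta-actin ratio, 11.37, was that of 20-week diabetic replicate 2, which is not among them, against 11.19 for 20-week nondiabetic replicate 1.

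The sequences just before the starts of both genes, where transcription is controlled, are shown so that the regulatory sequence of each gene can be read beside its values. They are the 250 bases upstream of the start in RefSeq's table for the rat build GRCr8, at chr10:12008245-12008494 on the minus strand for Dnase1 and chr3:33846685-33846934 on the plus strand for Endog. RefSeq lists several transcripts of Dnase1, and the window belongs to the start that the table gives. Capitals mark matches to 4 short motifs, searched on both strands. For the box bound by the core transcription machinery the letters searched were TATAAA. For the box bound by the factor NF-Y they were CCAAT. For the box bound by Sp1 and its relatives they were GGGCGG. For the E-box, bound by helix-loop-helix factors, they were CACGTG. No match overlapped another.

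Dnase1: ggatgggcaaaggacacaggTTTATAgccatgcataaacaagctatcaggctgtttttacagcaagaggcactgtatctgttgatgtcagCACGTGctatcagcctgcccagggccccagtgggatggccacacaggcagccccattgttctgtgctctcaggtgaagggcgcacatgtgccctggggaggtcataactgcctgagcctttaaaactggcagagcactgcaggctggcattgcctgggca

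Endog: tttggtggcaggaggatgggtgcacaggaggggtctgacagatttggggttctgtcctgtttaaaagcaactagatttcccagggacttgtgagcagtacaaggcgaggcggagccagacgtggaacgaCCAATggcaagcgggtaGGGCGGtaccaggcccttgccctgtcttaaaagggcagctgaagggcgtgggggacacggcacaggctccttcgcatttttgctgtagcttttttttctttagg

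Both windows had 55.2% G and C, but they differed in CpG content. The Dnase1 window held 2 CpG dinucleotides, 0.106 of the number expected from its bases, and 14.6% of 33469 rat windows of this length had a lower ratio. The Endog window held 9, a ratio of 0.507, with 60.4% of windows lower. Upstream of Dnase1 there was 1 E-box, 160 bases before the start, a match that 5.59% of windows hold. Its match to the letters TATAAA lay on the opposite strand, 230 bases before the start (12.9% of windows). Upstream of Endog there were 1 CCAAT box, 121 bases before the start (34% of windows), and 1 GC box, 104 bases before it (30.5% of windows). These are matches of letters and say nothing of binding in these samples.

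Dnase1 gave a bright signal on every array, and diabetic rats of both ages had more of it. At 10 weeks the 3 nondiabetic arrays read 11458, 9776 and 10665. The 3 diabetic arrays of that age read 18330, 21932 and 20296. All 3 diabetic arrays thus lay above all 3 nondiabetic ones, and the lowest diabetic signal was 1.60 times the highest nondiabetic one. Group means were 10633 ± 841 (SD, n = 3) and 20186 ± 1804, a 1.90-fold difference (log2 0.92 ± 0.10 SE, 95% interval 0.70 to 1.15). Higher without overlap were 7.47% of all 18625 probe sets tested at this age, a value given for scale, since Dnase1 was chosen on this contrast.

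At 20 weeks the nondiabetic arrays read 13164, 14415 and 12775 for Dnase1, and the diabetic arrays 17785, 19648 and 23179. The groups again did not overlap, with the lowest diabetic signal 1.23 times the highest nondiabetic one, as for 10.1% of all probe sets. The means were 13451 ± 857 and 20204 ± 2740, a 1.495-fold difference (log2 0.58 ± 0.10, 95% interval 0.35 to 0.81). Over both ages the mean difference was 0.75 ± 0.07 on the log2 scale, or 1.68-fold. Without both doubted arrays it was 0.99 at 10 weeks and 0.57 at 20 weeks. The difference at 10 weeks exceeded that at 20 weeks by 0.34 ± 0.15 (95% interval 0.02 to 0.66). This value is described and not tested, because it is built from the contrasts that chose the gene. In bulk cortex, more cells making a transcript and more transcript per cell cannot be told apart.

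**Figure D1:**
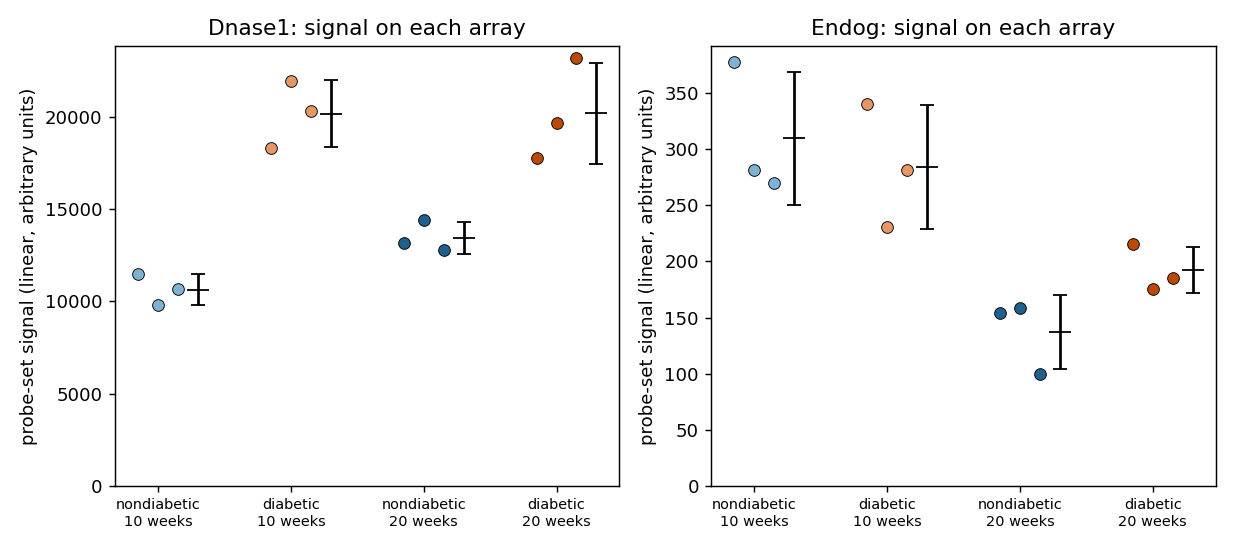
Probe-set signal (linear, arbitrary units, axis from 0) of Dnase1 and Endog on each of the 12 arrays, with the mean and SD of each group of 3 beside the points. The lowest diabetic array of Dnase1, at 17785, lies above the highest nondiabetic one, at 14415, while Endog is lowest in the nondiabetic arrays of 20 weeks, at 99.4 to 158.

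With age, the mean Dnase1 signal of nondiabetic rats went from 10633 at 10 weeks to 13451 at 20 weeks, 1.27-fold (log2 0.34 ± 0.10, 95% interval 0.11 to 0.57). These arrays also entered the diabetes contrasts that chose the gene. All 3 of 20 weeks lay above all 3 of 10 weeks, as for 6.36% of all probe sets in this comparison. The difference did not pass limma's test over all probe sets (unadjusted p = 0.00637, adjusted p = 0.49). In that comparison 0% of the 18625 probe sets passed, although 1603 had an unadjusted p under 0.05, and other settings of the fit called between 0 and 9. In diabetic rats the age difference was -0.0035 ± 0.10 (95% interval -0.23 to 0.22, limma adjusted p = 0.993), and the arrays of both ages overlapped. Its arrays, too, entered the contrasts that chose the gene. In order of level, Dnase1 was highest in the diabetic groups, whose ranges overlapped, then in nondiabetic rats of 20 weeks, and lowest in nondiabetic rats of 10 weeks.

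Endog gave a much weaker signal, from 99.4 to 378 over the 12 arrays, all above the limit of 70.9. In nondiabetic rats it was 378, 281 and 270 at 10 weeks. At 20 weeks it was 154, 158 and 99.4. No 20-week array reached the lowest 10-week array, which was 1.71 times the highest of 20 weeks. The means were 309.9 ± 59.4 and 137 ± 32.8, a 2.28-fold difference (log2 -1.19 ± 0.23, 95% interval -1.68 to -0.70). Lower without overlap were 5.7% of all probe sets, given for scale, since Endog was chosen on this contrast.

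The diabetic rats, whose arrays were not used to choose Endog, also gave lower values at 20 weeks. Their signals were 340, 231 and 281 at 10 weeks, and 215, 176 and 186 at 20 weeks, so that the groups did not overlap, as for 9.9% of all probe sets. The means were 284 ± 54.8 and 192 ± 20.6, 1.47-fold apart (log2 -0.55 ± 0.23, 95% interval -1.04 to -0.06). With limma this difference had an unadjusted p of 0.0296 and did not pass over all probe sets (adjusted p = 0.306), a comparison in which 0.66% of probe sets passed. The lower Endog signal with age went with a higher Gapdh 3'/5' ratio, which had means of 1.44 and 1.68 in nondiabetic and 1.46 and 1.68 in diabetic rats. The beta-actin ratio had means of 7.02 and 8.78 in nondiabetic and 7.15 and 9.61 in diabetic rats. With the Gapdh ratio as a covariate the age difference of Endog was -1.22 in nondiabetic and -0.58 in diabetic rats (limma adjusted p = 0.528 in diabetic rats). The Gapdh ratio of diabetic rats was 1.442 to 1.495 at 10 weeks and 1.597 to 1.755 at 20 weeks. Without overlap, the covariate cannot separate it from age there, and the part of RNA quality in the Endog difference was not tested. Without both doubted arrays the age difference of Endog was -1.29 in nondiabetic and -0.41 in diabetic rats.

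**Figure D2:**
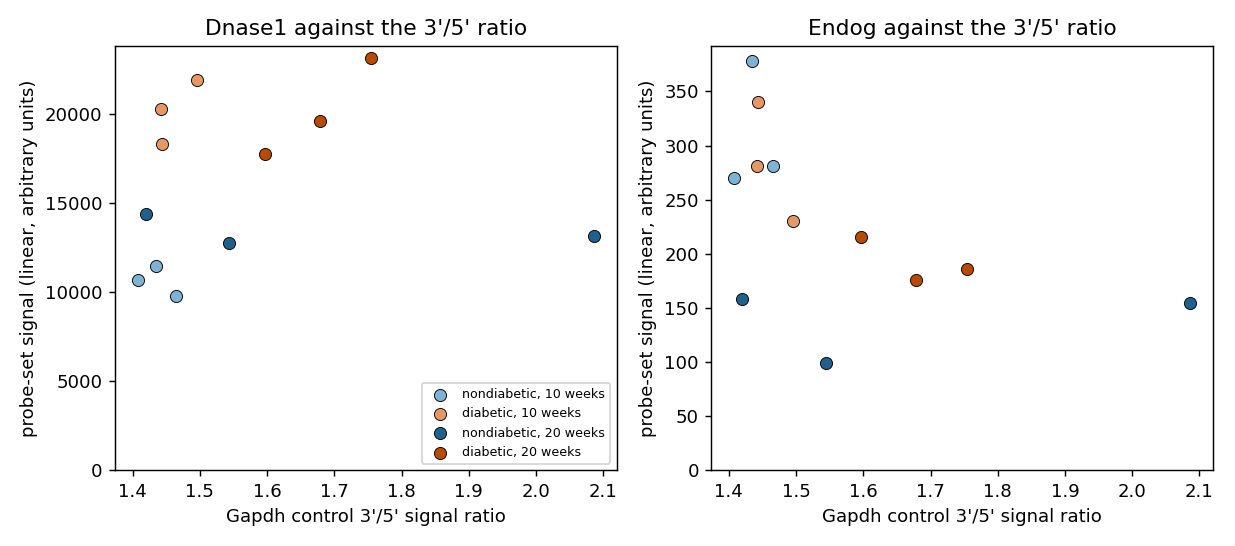
Signal of Dnase1 and of Endog (linear, arbitrary units, axis from 0) against the Gapdh 3'/5' ratio of the same array, coloured by group. The nondiabetic 20-week arrays, with ratios of 1.42, 1.544 and 2.09, had Endog signals of 158, 99.4 and 154, each below every 10-week array. Only the ratio of 1.42 lay inside the range of the 10-week arrays. The diabetic 20-week arrays, at 1.597 to 1.755, all had ratios above that range. Over the 12 arrays the log2 Endog signal and the log2 ratio had a Pearson r of -0.491, and of 0.088 after group means were taken out. The part of RNA quality was not tested.

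For Endog the diabetes contrasts were tested, with the limit that they share the nondiabetic arrays on which the gene was chosen. That choice favours low nondiabetic signals at 20 weeks, which can raise the diabetes difference of that age. It favours high ones at 10 weeks, which can lower the difference there. No support for a diabetes difference is therefore drawn from these p-values and intervals. At 10 weeks the diabetic and nondiabetic arrays overlapped, and the difference was -0.13 ± 0.23 on the log2 scale (95% interval -0.61 to 0.36, limma adjusted p = 0.885). At 20 weeks all 3 diabetic arrays lay above all 3 nondiabetic ones, the nearest pair 1.11-fold apart, as for 10.1% of all probe sets. The diabetic mean was 1.43-fold higher in the fit (log2 0.51 ± 0.23, 95% interval 0.02 to 0.999), which did not pass with limma (unadjusted p = 0.0415, adjusted p = 0.273). It was 0.29 without 20-week nondiabetic replicate 3, the array with the lowest Endog signal (adjusted p = 0.548), and the nondiabetic age difference was -0.97 without it. Over both ages the difference was 0.19 ± 0.16 (95% interval -0.15 to 0.54, limma adjusted p = 0.59), and it was 0.084 without that array. The difference at 10 weeks minus that at 20 weeks was -0.64 ± 0.32 (95% interval -1.33 to 0.05), or -0.42 without the same array. It equals the age difference in nondiabetic rats minus that in diabetic rats and so contains the contrast that chose the gene, and it is given without a test. In order of level, the groups ran from nondiabetic rats of 10 weeks through diabetic rats of 10 weeks, which overlapped them, and diabetic rats of 20 weeks down to nondiabetic rats of 20 weeks.

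**Figure D3:**
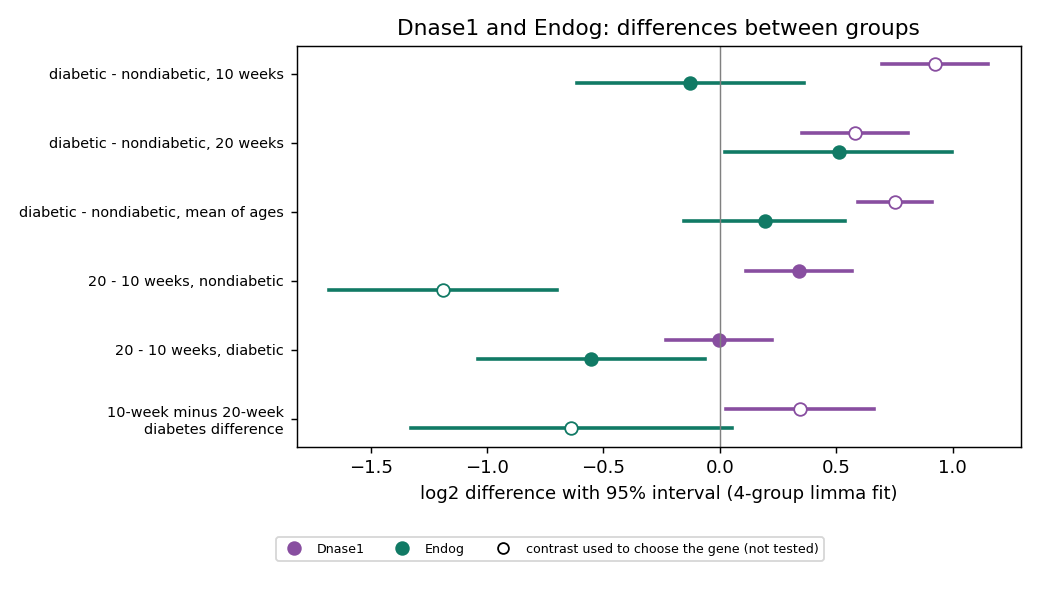
Log2 differences between groups for Dnase1 and Endog with 95% intervals from the limma fit of 4 group means; open points are contrasts that chose the gene and carry no test. The Dnase1 diabetes contrasts and the Endog age contrast in nondiabetic rats chose the genes, so the distance of their intervals from 0 is no support. For Endog with age in diabetic rats the interval was -1.04 to -0.06, and the difference did not pass with limma (adjusted p = 0.306).

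Dnase1 was measured more precisely than Endog. The spread within groups was 0.14 (SD on the log2 scale) for Dnase1 and 0.28 for Endog, against a median of 0.22 over all probe sets tested. A larger spread was found in 77.3% of probe sets for Dnase1 and in 36.8% for Endog. An Endog difference therefore had an SE of 0.23 against 0.10 for Dnase1. Over the 12 arrays the log2 signals of both genes had a Pearson r of -0.07, given as a description of arrays that fall into 4 groups.

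Relatives and partners of both enzymes were taken from 6 lists compiled from general knowledge. Of 96 genes other than Dnase1 and Endog, 72 were tested, and the other 24 were below the limit for dim probe sets or not analysed here. Of these 72, none passed with limma for diabetes at 10 weeks (8 had an unadjusted p under 0.05, against 10.9% of all probe sets, of which 0.306% passed), 2 passed at 20 weeks (2.84%) and 4 over both ages (4.47%). For age none passed in nondiabetic or in diabetic rats with limma, where 6 and 9 of the 72 had an unadjusted p under 0.05, against 8.61% and 13.6% of all probe sets. The shares at 20 weeks and over both ages, 2.78% and 5.56%, lay near those of all probe sets.

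None of the 3 relatives of DNase I that were tested passed in these 5 comparisons. Of the other 2 listed, Dnase2b was below the limit for dim probe sets and Dnase1l2 had no probe set named for it alone. Dnase1l1, a DNase I-like enzyme bound to membranes, had means of 442 ± 86.5 and 598 ± 105 in nondiabetic and diabetic rats of 10 weeks (log2 0.44 ± 0.16, limma adjusted p = 0.323). At 20 weeks they were 521 ± 54.4 and 583 ± 38.5 (0.17 ± 0.16). Dnase1l3, which digests DNA in chromatin and is made by macrophages and dendritic cells, differed by -0.02 ± 0.33 at 10 and by 0.18 ± 0.33 at 20 weeks, with means near the limit for dim probe sets (84.2 to 95.7). Dnase2, the acid DNase of lysosomes, differed by -0.01 ± 0.25 and -0.17 ± 0.25. Among actin genes, Actg1, whose monomer can bind DNase I, differed by 0.02 ± 0.09 and -0.02 ± 0.09. Its second probe set gave -0.24 ± 0.17 and -0.20 ± 0.17. Of the other actin genes, Gsn, a filament-severing protein, had an age difference of 0.29 ± 0.10 in diabetic rats (limma adjusted p = 0.242), and Pfn1, which binds actin monomers, had -0.23 ± 0.09 (0.291). Tmsb4x, which also holds actin as monomers, had a diabetes difference of 0.28 ± 0.09 at 20 weeks (limma adjusted p = 0.113). None of the 8 actin genes tested passed.

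Around Endog, none of 16 other genes of mitochondrial nucleases and mitochondrial DNA maintenance passed in the 5 comparisons. Their median age difference in nondiabetic rats was 0.06, against 0.0051 for all probe sets. Endog had -1.19, but it was chosen on this contrast and they were not. Exog, a mitochondrial relative of Endog, differed by 0.22 ± 0.24 with age in nondiabetic and by 0.09 ± 0.24 in diabetic rats. Mgme1, an exonuclease of mitochondrial DNA, gave 0.09 ± 0.16 and 0.05 ± 0.16. Tfam, which packages mitochondrial DNA, gave 0.03 ± 0.10 and 0.10 ± 0.10. Lig3, the mitochondrial DNA ligase, was the member with the lowest value in nondiabetic rats (-0.32 ± 0.12, limma adjusted p = 0.544). Twnk, the helicase of mitochondrial DNA, had a diabetes difference of 0.40 ± 0.17 at 10 weeks (limma adjusted p = 0.426), and its second probe set gave 0.00056 ± 0.14. Ssbp1, which coats single-stranded mitochondrial DNA, had 0.19 ± 0.09 at 20 weeks (limma adjusted p = 0.316).

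In the cell death list, of 16 genes tested 1 rose in diabetes. Mcl1, which restrains release of mitochondrial proteins, went from 4699 ± 395 to 6252 ± 294 at 20 weeks (log2 0.41 ± 0.09, limma adjusted p = 0.0249) and rose over both ages (0.33 ± 0.06, adjusted p = 0.00798). Its second probe set gave -0.14 ± 0.15 at 20 weeks and -0.02 ± 0.10 over both ages. Aifm1, a protein of the same mitochondrial compartment as Endog that also acts on DNA in cell death, had age differences of -0.25 ± 0.08 in nondiabetic and -0.27 ± 0.08 in diabetic rats (limma adjusted p = 0.49 and 0.173). Casp6, an executioner caspase, had -0.52 ± 0.15 and -0.47 ± 0.15 (limma adjusted p = 0.482 and 0.207).

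Of 23 other nucleases 1 fell and 1 rose. Rnaseh2b, a subunit of the enzyme that removes ribonucleotides from DNA, went from 1733 ± 167 to 1154 ± 36.1 in diabetes at 20 weeks (log2 -0.58 ± 0.10, limma adjusted p = 0.00924) and fell over both ages (-0.42 ± 0.07, adjusted p = 0.00443). Ang, a secreted ribonuclease, rose over both ages (1.24 ± 0.31, limma adjusted p = 0.0397), with 148 ± 62 against 250 ± 111 in diabetic rats of 10 weeks, and 101 ± 39.6 against 334 ± 139 in those of 20 weeks. Near-identical relatives of Ang may share its probes. Rnase4, its neighbour in the genome, gave 0.74 ± 0.21 and did not pass (limma adjusted p = 0.0751). Its second probe set gave 0.49 ± 0.17 (limma adjusted p = 0.152). Ercc4, a DNA repair nuclease, had -0.65 ± 0.18 at 20 weeks (limma adjusted p = 0.084). It was -0.87 and passed without 20-week nondiabetic replicate 1 (adjusted p = 0.0184). Of 6 DNA sensor genes 1 passed. Irf3, which drives the interferon response to DNA, fell over both ages (-0.23 ± 0.06, limma adjusted p = 0.0315). Sting1, the adaptor of cytosolic DNA sensing, and the sensor Ddx41 had age differences of 0.81 ± 0.41 and 0.37 ± 0.16 in nondiabetic rats (limma adjusted p = 0.607 and 0.56).

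The calls of Ang and Irf3 were lost in many settings. That of Ang was lost without any 1 of 9 arrays (adjusted p up to 0.0981), without the intensity trend (0.0755) and without a filter on dim probe sets (0.053). That of Irf3 was lost without any 1 of 9 arrays (adjusted p up to 0.0771), without the intensity trend (0.0884), with median centring (adjusted p = 0.152), with replicate number as a block (0.0563) and without both doubted arrays (0.116). Mcl1 at 20 weeks was not called without the intensity trend (adjusted p = 0.0896), with its groups fitted alone (0.0615), without 20-week nondiabetic replicate 2 (adjusted p = 0.0953) or without any 1 of the 3 diabetic arrays of that age (0.0512 to 0.0904). Rnaseh2b stayed called in every alternative run, with adjusted p between 0.00662 and 0.046 at 20 weeks.

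**Figure D4:**
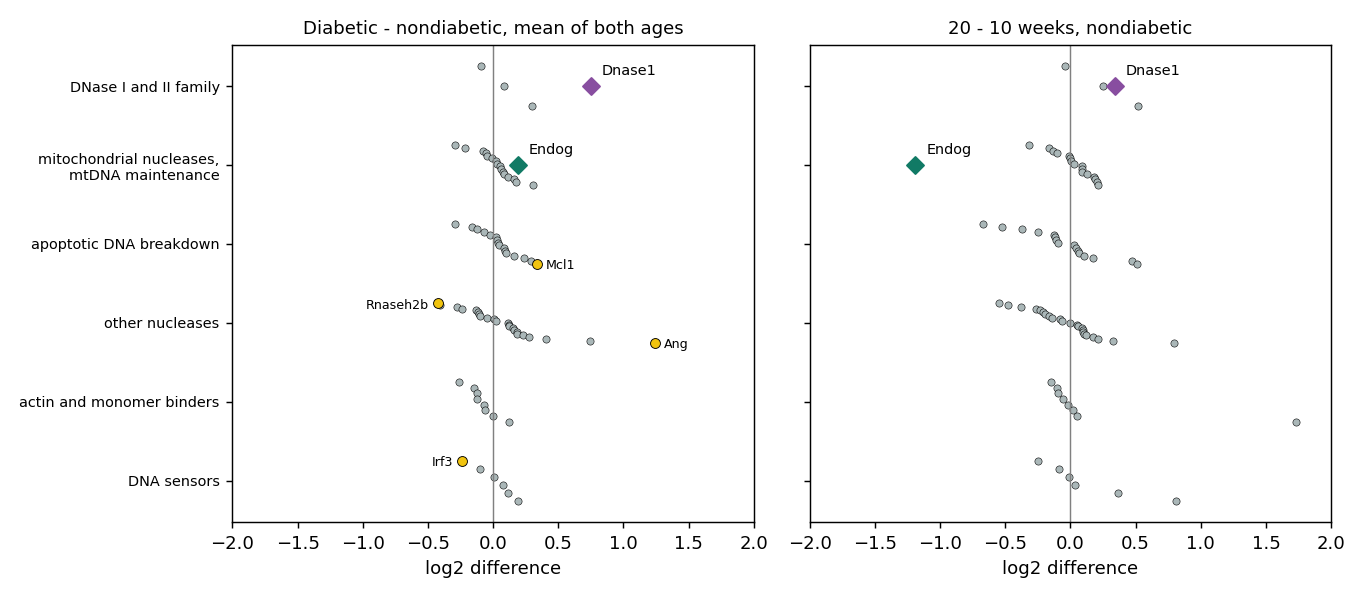
Log2 differences of the 72 genes of the 6 lists (circles, yellow where limma's adjusted p was under 0.05), with Dnase1 and Endog as diamonds, for diabetes averaged over both ages (left) and for age in nondiabetic rats (right). Each gene is shown by its brightest probe set. Dnase1 was chosen for its rise in diabetes and Endog for its fall with age in nondiabetic rats. Their places among the circles are therefore no support. On the left Dnase1 stands at 0.75 and Ang at 1.24. On the right Endog stands at -1.19, and the lowest circle, Xiap, at -0.67. Gc at 1.73 is the highest there, and no gene was called. Second probe sets, not shown, gave -1.13 ± 0.39 for Rad50, -0.70 ± 0.38 for Xrn2 and 0.36 ± 0.48 for Gc in the contrast on the right.

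Cell markers were set beside the differences. Over both ages 4.47% of all probe sets passed for diabetes, a share to hold beside the counts of markers. The summed signal of 13 proximal tubule markers ranged from 202490 to 218630 in nondiabetic and from 202910 to 219050 in diabetic rats of 10 weeks, and from 199060 to 228330 and 206270 to 216080 at 20 weeks, so the groups overlapped. Of those 13, none rose and 1 fell in diabetes, Slc13a3 (-0.29 ± 0.06 over both ages, limma adjusted p = 0.0166). The summed signal of 11 collecting duct markers was 11689 to 14118 in nondiabetic and 13511 to 17375 in diabetic rats of 10 weeks, and 11286 to 12602 and 13395 to 14828 at 20 weeks. Of them 3 rose over both ages, Aqp2 (0.55 ± 0.09, adjusted p = 0.00391), Aqp4 (1.14 ± 0.23, adjusted p = 0.0159) and Fxyd4 (0.78 ± 0.15, adjusted p = 0.00914). The other 2 called fell, Atp6v1b1 (-0.37 ± 0.09, limma adjusted p = 0.0431) and Slc26a4 (-0.51 ± 0.10, adjusted p = 0.011), and the median of the 11 was 0.04. The summed signal of 10 pancreatic and salivary markers was 2611 to 3537 in nondiabetic and 2693 to 3689 in diabetic rats of 10 weeks, and 3586 to 4063 and 3525 to 3883 at 20 weeks. Only 1 of these markers, Cela1, passed the limit for dim probe sets, so the sums are not those of 10 clearly expressed genes.

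Some markers of other cell types also passed for diabetes over both ages, against 4.47% of all probe sets. Of 5 podocyte markers 2 fell over both ages, Nphs1 (-0.48 ± 0.10, limma adjusted p = 0.0157) and Ptpro (-0.40 ± 0.10, adjusted p = 0.0339). Their summed signal was 5970 to 6705 in nondiabetic and 4681 to 6121 in diabetic rats of 10 weeks, and 5526 to 6000 and 4512 to 5030 at 20 weeks. Of 8 endothelial markers 1 fell, Vwf (-1.78 ± 0.34, limma adjusted p = 0.0114), and their median was -0.04. Sums of these markers were 9801 to 11535 and 9319 to 10500 at 10 weeks, and 10061 to 11557 and 8976 to 9504 at 20 weeks. Of 5 leukocyte markers tested 1 rose, Csf1r (0.36 ± 0.09, limma adjusted p = 0.0453), and the other 4 had differences of 0.18 to 0.39. The sums over the 10 on the array were 14201 to 16872 and 15906 to 20559 at 10 weeks, and 11813 to 21224 and 16581 to 23715 at 20 weeks. Of 3 fat cell markers tested none passed, with Fabp4 at 2.83 ± 0.78 (limma adjusted p = 0.063) and a median of 1.78. Their sums over the 6 on the array were 265 to 934 and 732 to 1609 at 10 weeks, and 604 to 813 and 1075 to 1961 at 20 weeks. None of 8 loop and distal tubule or 2 erythroid markers passed, but their medians over both ages were -0.33 and -0.26, against -0.01 for all probe sets tested. Sums over the 9 loop and distal tubule markers on the array were 46790 to 52880 and 44083 to 49558 at 10 weeks. At 20 weeks they were 46815 to 51513 and 38809 to 52607. At 20 weeks, unlike for the proximal tubule, the sums did not overlap between diabetic and nondiabetic rats for 4 cell types. They were higher in diabetic rats for collecting duct and fat cells, and lower for podocytes and endothelium. At 10 weeks the sums of these 4 overlapped. The part of any of these cell types in the Dnase1 difference was not tested.

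Genes were ranked by how closely their log2 signals followed each endonuclease over the 12 arrays, among 13872 probe sets with a single gene symbol. The ranking is descriptive, since the 12 arrays fall into 4 groups. Closest to Dnase1 were Kmo (Pearson r = 0.946), an enzyme of tryptophan breakdown, Bhmt (0.926), which remethylates homocysteine, and Baat (0.925), which conjugates bile acids. Slc27a2 (0.925), a fatty acid transporter, Mthfd1 (0.916), a folate enzyme, and the transporter Abca8a (0.909) followed. After group means were taken out, r was 0.764 for Bhmt and 0.769 for Abca8a, against 0.458 for Kmo and 0.431 for Slc27a2. Opposite to Dnase1 ran Tbc1d14 (-0.951), Mlph (-0.941) and Cpm (-0.921), with -0.323, -0.55 and -0.355 after group means were taken out.

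Closest to Endog were Slc31a1 (r = 0.948), a copper importer, Ifit2 (0.916), an interferon-induced gene, and Fbln5 (0.903), a protein of elastic fibres. Nptn (0.90), Ank3 (0.863) and Tril (0.855) came next, with 0.573, 0.418 and 0.51 after group means were taken out. Slc31a1 went from a mean of 3975 to 3168 with age in nondiabetic rats and from 3822 to 3476 in diabetic rats, and its r was 0.691 after group means were taken out. Ifit2 went from 244 to 126 and from 227 to 178. Opposite to Endog ran Hsp90ab1 (-0.882), Hnrnpc (-0.878) and Klf16 (-0.859), with -0.382, -0.35 and -0.461 after group means were taken out. With median centring Hsp90ab1 gave -0.555 and Hnrnpc -0.602, and with quantile normalization Hsp90ab1 gave -0.639.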

How the data were processed

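Biotin-labelled cRNA of 12 cortex samples was hybridised to 1 array each, per the labels' protocols. The authors used GCOS, per the submitters' processing notes, and deposited 1 linear intensity per probe set and array. The sources used here do not give its version or its way of summarising probes. Because the arrays were scaled to a common level, a difference is relative to the other transcripts, and a shift of most of them in 1 direction could not be seen.

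Of 31099 probe sets 57 controls were left out. Signals under 1 (424 values) were set to 1, log2 was taken, and the dimmest 40% by mean were left out, which kept 18625. Both Dnase1 and Endog passed. Gene symbols were those of the platform annotation, brought up to date with RefSeq's gene table: 20832 probe sets named 1 gene and 436 several. Members, lists and tests were chosen with earlier results of these data known. The genes named are those called in a list, the 3 with the smallest p of each list, and the 6 most and 3 least like each endonuclease by Pearson r. Exog, Mgme1, Tfam, Actg1 and Rnase4 fall outside this rule and were picked for their roles after their values were seen, as were Xiap, Gc, Fabp4, Rad50 and Xrn2 for their extreme values. For a list gene with several probe sets, the brightest by mean was used.

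Differences were fitted with limma 3.58.1 in R 4.3.3, with 4 group means, 8 residual degrees of freedom and an intensity trend. Tests were two-sided, with Benjamini-Hochberg adjustment over the 18625 probe sets and a threshold of 0.05; SE and 95% intervals are those of the fit. The script was tested on simulated data. The number of arrays limits the precision. The labels do not tie arrays to rats, so a p-value here reflects only how these samples vary, which may be technical. Same-numbered samples of different groups did not deviate together (r from -0.151 to 0.149 over 18 pairs), and the numbers were not taken as pairs.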

Additional observations from a re-analysis of the deposited data

How the results depend on the processing

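The 12 differences of Dnase1 and Endog were refitted under up to 24 alternatives. They covered scaling (quantile, median), the limit for dim signals, an added offset of 16, how the variance was estimated, array weights, 2-group fits, the replicate number as a block, the Gapdh ratio as a covariate, and arrays left out (both doubted ones together, then each of the 12). Of 278 values, 271 kept direction and side of the threshold, or moved by less than the spread between replicates, and no tested difference was called in any of them. Endog had no value with the dimmest 60% left out, where it was not kept, and neither gene has another probe set. With median centring the Dnase1 difference at 10 weeks minus that at 20 weeks was 0.49, where the median of all probe sets moved to 0.14. Leaving out single arrays gave Dnase1 age differences in diabetic rats from -0.107 to 0.0841 and Endog diabetes differences at 10 weeks from -0.265 to 0.0256, so their sign is not settled. With the replicate block, which leaves the differences as they are, Endog with age in diabetic rats kept -0.55 (adjusted p = 0.257).

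Leaving out single arrays moved Dnase1 in diabetes between 0.86 and 0.99 at 10 weeks and between 0.48 and 0.67 at 20 weeks, and Endog with age between -1.31 and -0.97 in nondiabetic and between -0.69 and -0.41 in diabetic rats. Counts of called probe sets moved more. They ran from 5 to 115 at 10 weeks (57 as reported), 191 to 567 at 20 weeks (529), 494 to 876 over both ages (833) and 5 to 239 for age in diabetic rats (123). The extremes were 5 when 10-week nondiabetic replicate 2 was left out, 115 when replicate 3 of that group was, 191 and 5 without the intensity trend, and 494 without both doubted arrays. For age in nondiabetic rats 9 were called without 10-week or without 20-week nondiabetic replicate 3. The background shares are therefore approximate.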
